A study of Homo sapiens with 11 samples.

Results

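The aryl hydrocarbon receptor (AHR) pathway is followed here through 7 genes of the 40460 in the deposited expression table. They are AHR, its partner ARNT, the repressor AHRR, the metabolic targets CYP1A1, CYP1B1 and ALDH3A1, and TIPARP. These genes were chosen by symbol, as the receptor with its partners and targets, when earlier results of these data in all comparisons were already known. The rule itself names no threshold and no contrast. Their values are therefore given as a description, with moderated standard errors and with no test, and the tests below concern other genes of the pathway that were not members. Those genes were also listed with earlier results known, so their p-values carry the same limit. All 7 members passed the filter on low values.

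AHR is a ligand-activated transcription factor of the bHLH-PAS family. It rests in the cytosol with the chaperone HSP90, and after binding a ligand such as a dioxin, a polycyclic aromatic hydrocarbon or a tryptophan metabolite it enters the nucleus, pairs with ARNT and binds the xenobiotic response element. Its classical targets are the oxidising enzymes CYP1A1 and CYP1B1 and the aldehyde dehydrogenase ALDH3A1. AHRR competes for ARNT, and TIPARP, a mono-ADP-ribosyltransferase also called PARP7, marks AHR itself, so both are targets that restrain the receptor. In breast epithelium CYP1A1 and CYP1B1 are known for hydroxylating oestrogens as well as carcinogens.

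The RNA came from hTert-HME1 at passage 6, which is an established line of human breast epithelium kept dividing by added telomerase. The 11 libraries form 4 groups. Cells labelled BRCA2 siRNA (BRCA2-1) were grown without epidermal growth factor (EGF) in 3 libraries, and cells labelled control siRNA (control-2) without EGF in 2. The same siRNAs were used in complete medium with EGF in 3 libraries each. All groups share the line, the mammary epithelial medium and transfection with a lipid reagent, and each target was addressed by 1 siRNA. Replicates A, B and C are biological replicates by their labels, and control siRNA without EGF has A and C. The values are log2 units that the authors normalised. Without counts the sequencing depth is unknown, and levels are not compared between genes because they are not per length.

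Some facts of the whole table bear on every result. BRCA2 (ENSG00000139618), the targeted gene, went against its label. In medium without EGF its level stood above control under the BRCA2 siRNA label, with log2 values of 12.48, 12.27 and 12.11 in A, B and C, against 11.44 and 11.65 in A and C labelled control siRNA (difference 0.74 ± 0.13, limma adjusted p = 0.00397). That call ended without control replicate A without EGF (0.64, adjusted p = 0.0655) and with replicates B and C alone (0.54, adjusted p = 0.382). With EGF the difference was 0.05 ± 0.12 (limma adjusted p = 0.999). Groups are therefore called by their labels. In every gene the mean over the 4 A libraries equals the mean over the 7 B and C libraries, to within 7.2e-09. The sources used here describe no such centring. Differences within the A libraries are untouched by it, while the level of an A library against B and C is not, so differences within replicates and with B and C alone are given where they alter a result. All 8 basal epithelial markers listed passed the filter, as did 5 of 8 luminal, 5 of 6 fibroblast and 1 of 7 leukocyte and endothelial markers. The luminal markers KRT19, PGR and ELF5 stayed at or below 2.15 in every library. The summed linear level of the fibroblast list was 1130 to 2159 in BRCA2 siRNA libraries and 2745 to 2845 in control siRNA libraries without EGF, against 673 to 769 and 620 to 688 with EGF. That of the basal list was 597952 to 688349 and 774554 to 867301 without EGF, against 390124 to 448108 and 378315 to 448310 with EGF. The luminal sum ran the other way, at 4182 to 4619 and 4709 to 4804 without EGF, against 5782 to 5961 and 5300 to 6323 with EGF. The leukocyte and endothelial sum was 32.8 to 34.9 and 48.2 to 64.9 without EGF, against 25.4 to 29.9 and 24.2 to 35.0 with EGF. The part of these 4 shifts in the results below was not tested. In bulk RNA a change in the make-up of the cells and a change in RNA per cell cannot be told apart.

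The stretch before the transcription start was read for the core of the xenobiotic response element, GCGTG, on both strands. The same letters are one form of the core bound by hypoxia-inducible factors. RefSeq windows (GRCh38.p14) were matched for 5 of the 7 members, AHR, ARNT, AHRR, CYP1A1 and TIPARP, with 8 start sites in all. The 250 bases before the start held the core in 4 of these 8 windows, which belong to AHRR, CYP1A1 and TIPARP. Of all 35116 RefSeq windows of this length 32.2% hold it. The longer form TNGCGTG, which contains the core, stood in 1 of the 8 windows, that of the first AHRR start, and in 4.52% of all windows. The windows below are shown because CYP1A1 and AHRR differed between media, TIPARP carries the core and did not differ by more than its replicates, and ARNT differed without it. Capitals mark the core on either strand, and each line reads 5′ to 3′ along the gene. The windows are chr15:74725529-74725778 on the minus strand, chr5:321464-321713 and chr3:156674340-156674589 on the plus strand, and chr1:150876600-150876849 on the minus strand.
CYP1A1: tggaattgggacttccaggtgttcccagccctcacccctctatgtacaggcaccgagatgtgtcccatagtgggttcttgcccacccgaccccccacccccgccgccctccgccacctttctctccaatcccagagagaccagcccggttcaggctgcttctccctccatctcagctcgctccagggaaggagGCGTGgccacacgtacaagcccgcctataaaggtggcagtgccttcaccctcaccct
AHRR: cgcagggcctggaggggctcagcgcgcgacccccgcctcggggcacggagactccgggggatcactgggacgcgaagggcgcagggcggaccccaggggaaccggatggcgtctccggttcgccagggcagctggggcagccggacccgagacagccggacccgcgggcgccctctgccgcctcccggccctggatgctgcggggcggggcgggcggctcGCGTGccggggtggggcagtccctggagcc
TIPARP: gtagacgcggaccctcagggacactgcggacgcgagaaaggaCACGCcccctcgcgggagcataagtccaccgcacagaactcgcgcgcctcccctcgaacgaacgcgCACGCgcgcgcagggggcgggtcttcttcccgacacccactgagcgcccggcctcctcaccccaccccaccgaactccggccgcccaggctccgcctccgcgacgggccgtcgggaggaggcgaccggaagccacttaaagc
ARNT: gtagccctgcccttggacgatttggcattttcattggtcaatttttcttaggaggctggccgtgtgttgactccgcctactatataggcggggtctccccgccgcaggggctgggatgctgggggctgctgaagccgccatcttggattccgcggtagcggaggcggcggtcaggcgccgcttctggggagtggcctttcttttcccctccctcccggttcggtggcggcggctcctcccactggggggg

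In the CYP1A1 window the core began 57 bases before the start, and in the AHRR window 30 bases before it. The second AHRR start held it at 247 and 42 bases. In the TIPARP window it began at 208 and 142 bases before the start, both on the opposite strand. A match describes these letters and is not evidence of binding. Bases outside these windows were not read, so a window without the core does not show that the gene lacks it.

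AHR (ENSG00000106546), the receptor, did not separate the media. Under BRCA2 siRNA its log2 value was 13.76, 13.71 and 13.80 without EGF in A, B and C, against 13.36, 14.32 and 13.16 with EGF. Under control siRNA it was 13.89 and 13.89 without EGF in A and C, against 13.97, 14.21 and 13.13 with EGF in A, B and C. The libraries without EGF lay close together, and those with EGF spread on both sides of them. The difference for EGF withdrawal was 0.14 ± 0.30 under BRCA2 siRNA and 0.12 ± 0.33 under control siRNA, and with single libraries left out it ran from -0.0818 to 0.498 and from -0.204 to 0.335. Between siRNA labels it was -0.13 ± 0.33 without EGF, where the groups did not overlap, and -0.16 ± 0.30 with EGF. Each of these errors pools the spread of all 4 groups. The SD of AHR without EGF was 0.0484 under BRCA2 siRNA and 0.0001 under control siRNA, against 0.62 and 0.57 with EGF. With EGF, replicate B exceeded C by 1.16 in BRCA2 siRNA and 1.08 in control siRNA libraries, and 98.1% and 96.6% of the 17945 genes tested had a smaller gap. Within replicates the withdrawal difference under BRCA2 siRNA was 0.40 in A, -0.61 in B and 0.65 in C, and under control siRNA -0.09 in A and 0.76 in C. The receptor transcript thus varied more between replicates grown with EGF than between media.

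ARNT (ENSG00000143437), the partner that AHR needs to bind DNA, showed a small difference on a narrow spread. Under BRCA2 siRNA it stood at 11.31, 11.41 and 11.51 without EGF, against 11.17, 11.23 and 11.17 with EGF, a difference of 0.22 ± 0.07. Under control siRNA it stood at 11.70 and 11.69 without EGF, against 11.17, 11.18 and 11.18 with EGF, a difference of 0.52 ± 0.08 or 1.43-fold. No library without EGF overlapped one with EGF. Without EGF the BRCA2 siRNA libraries were lower than the control siRNA libraries (-0.28 ± 0.08), again with no overlap, while with EGF the difference was 0.01 ± 0.07. Quantile normalization of the table put the withdrawal differences at 0.33 and 0.75.

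AHRR (ENSG00000063438), the repressor that competes with AHR for ARNT, was higher without EGF under both siRNAs. Under BRCA2 siRNA the values were 8.001, 8.06 and 8.47 without EGF, against 7.14, 7.68 and 7.33 with EGF (0.79 ± 0.17, 1.73-fold). Under control siRNA they were 9.08 and 8.81 without EGF, against 7.73, 7.90 and 7.67 with EGF (1.18 ± 0.19, 2.26-fold). The ranges did not overlap in either pair. Without EGF the BRCA2 siRNA libraries lay below the control siRNA libraries (-0.77 ± 0.19). With EGF their mean was lower too (-0.38 ± 0.17), but the highest of them, replicate B at 7.68, passed the lowest control library, replicate C at 7.67.

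TIPARP (ENSG00000163659), the other target that restrains the receptor, overlapped in all comparisons. Under BRCA2 siRNA it was 13.79, 13.99 and 14.06 without EGF, against 14.11, 14.13 and 13.88 with EGF (-0.10 ± 0.11). Under control siRNA it was 14.02 and 14.11 without EGF, against 14.09, 14.06 and 13.79 with EGF (0.08 ± 0.12). Between siRNA labels the difference was -0.12 ± 0.12 without EGF and 0.06 ± 0.11 with EGF. In both groups with EGF replicate C was the lowest library. Under quantile normalization the differences were 0.08 and 0.39, so the sign under BRCA2 siRNA depends on the scaling.

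CYP1A1 (ENSG00000140465), the oxidising enzyme most often read as a sign of AHR activity, had the widest difference of the 7 under control siRNA and between siRNA labels without EGF. In BRCA2 siRNA libraries it stood at 6.00, 6.59 and 7.61 without EGF, against 5.74, 5.71 and 6.12 with EGF. These groups overlapped only because replicate A without EGF (6.00) was below replicate C with EGF (6.12). That sets A against C, a level the centring touches, and within each letter the value without EGF was higher. The difference was 0.88 ± 0.31 or 1.84-fold. In control siRNA libraries it stood at 9.43 and 9.38 without EGF, against 5.77, 6.02 and 5.71 with EGF. That is a log2 difference of 3.57 ± 0.35 or 11.9-fold, and the groups were far apart. Within replicates the withdrawal difference under BRCA2 siRNA was 0.26 in A, 0.88 in B and 1.49 in C, and without replicate C of the BRCA2 siRNA libraries without EGF the mean difference was 0.44. Without EGF the log2 difference between BRCA2 siRNA and control siRNA libraries was -2.67 ± 0.35, a level 6.36-fold lower. That gap was -3.43 in replicate A and -1.77 in replicate C. With EGF the difference was 0.02 ± 0.31.

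CYP1B1 (ENSG00000138061), which hydroxylates oestradiol and activates polycyclic hydrocarbons, was higher without EGF in every library. Its values were 6.81, 6.88 and 7.39 in BRCA2 siRNA libraries without EGF, against 5.45, 6.08 and 5.47 with EGF (1.36 ± 0.25, 2.57-fold). In control siRNA libraries they were 8.39 and 8.61 without EGF, against 6.00, 6.52 and 5.66 with EGF (2.43 ± 0.28, 5.40-fold). Without EGF the BRCA2 siRNA libraries were lower (-1.47 ± 0.28), a 2.76-fold gap with no overlap. With EGF the groups overlapped (-0.40 ± 0.25), and replicate B exceeded C by 0.62 under BRCA2 siRNA and 0.86 under control siRNA.

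ALDH3A1 (ENSG00000108602), which oxidises aromatic and lipid aldehydes, followed the same order. In BRCA2 siRNA libraries it was 6.04, 5.93 and 6.71 without EGF, against 4.78, 5.34 and 5.09 with EGF (1.16 ± 0.21, 2.23-fold). In control siRNA libraries it was 7.79 and 8.05 without EGF, against 4.95, 5.04 and 5.07 with EGF (2.91 ± 0.24, 7.50-fold). Neither pair overlapped. Without EGF the BRCA2 siRNA libraries were lower (-1.70 ± 0.24, 3.25-fold), and with EGF the difference was 0.05 ± 0.21.

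**Figure D1:**
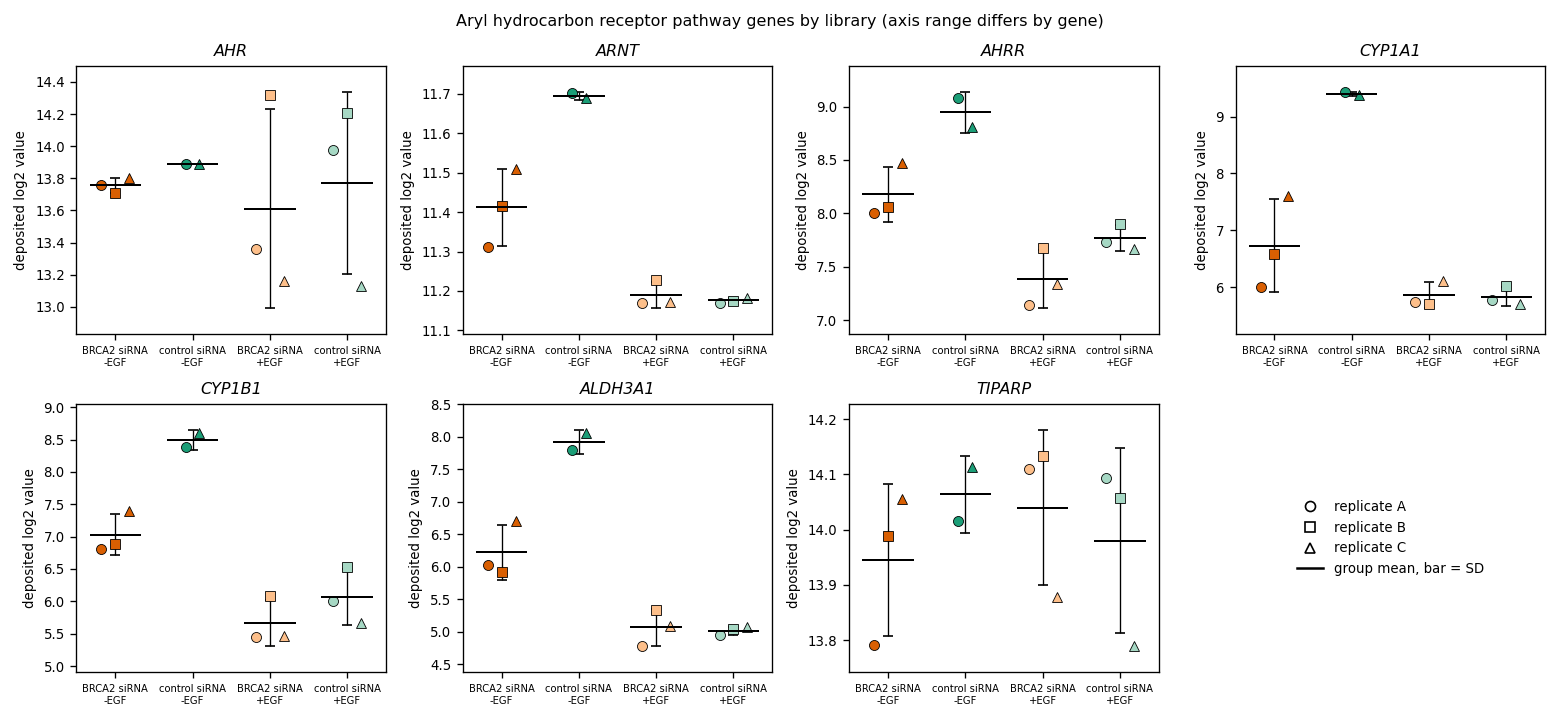
Deposited log2 value of each of the 7 genes (y axis, with its own range per gene) in the 4 groups (x axis), with 1 point per library, the group mean as a line and its SD as a bar. ARNT, AHRR, CYP1A1, CYP1B1 and ALDH3A1 are highest in the 2 control siRNA libraries without EGF, and AHR shows its spread in the libraries with EGF.

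The order of the group means was the same for ARNT, AHRR, CYP1A1, CYP1B1 and ALDH3A1 at its upper end. Control siRNA without EGF was highest and BRCA2 siRNA without EGF was next, and these neighbours did not overlap. Next came the groups with EGF, which overlapped each other in each of the 7 genes. CYP1A1 was the exception in the middle of the order, since BRCA2 siRNA without EGF overlapped both groups with EGF. Both overlaps set its replicate A against a B or C library, a level that the centring touches. The spread of CYP1A1 in BRCA2 siRNA libraries without EGF (SD 0.81, n = 3) was the widest of any member in any group. Replicate C was the highest of these 3 libraries in each of the 7 genes.

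Counted over the members, EGF withdrawal under BRCA2 siRNA left 4 of 7 with no overlap and higher without EGF and 0 lower, against 22.2% and 24.4% of the 17945 genes tested. Under control siRNA 5 of 7 were higher with no overlap and 0 lower, against 32.9% and 33.6%. Their median difference was 0.79 under BRCA2 siRNA and 1.18 under control siRNA, where the medians over all genes tested were 0.0032 and -0.0036. Without EGF, 0 of 7 were higher and 6 lower with no overlap in BRCA2 siRNA than in control siRNA libraries, against 33.2% and 29% of genes. The AHR difference among these 6 was -0.13 ± 0.33, an error that includes the spread of the groups with EGF. With EGF 0 of 7 separated in either direction, against 2.51% higher and 3.38% lower. Compared by letter with EGF, AHRR was lower under BRCA2 siRNA in A, B and C (-0.59, -0.23 and -0.33), as was CYP1B1 (-0.55, -0.44 and -0.19). These counts describe genes picked with the results known, and no direction is read from them. They also set A libraries against B and C, whose relative level the centring fixed, for members and all genes alike. The withdrawal comparisons share libraries with the siRNA comparisons, so the values are not independent.

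The difference of the differences, withdrawal under BRCA2 siRNA minus withdrawal under control siRNA, was -2.69 ± 0.47 for CYP1A1, -1.75 ± 0.32 for ALDH3A1 and -1.07 ± 0.37 for CYP1B1. It was -0.38 ± 0.25 for AHRR and -0.30 ± 0.10 for ARNT. For AHR and TIPARP it was 0.03 ± 0.44 and -0.18 ± 0.16. The 3 metabolic enzymes thus had the largest gaps among the 7 members.

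**Figure D2:**
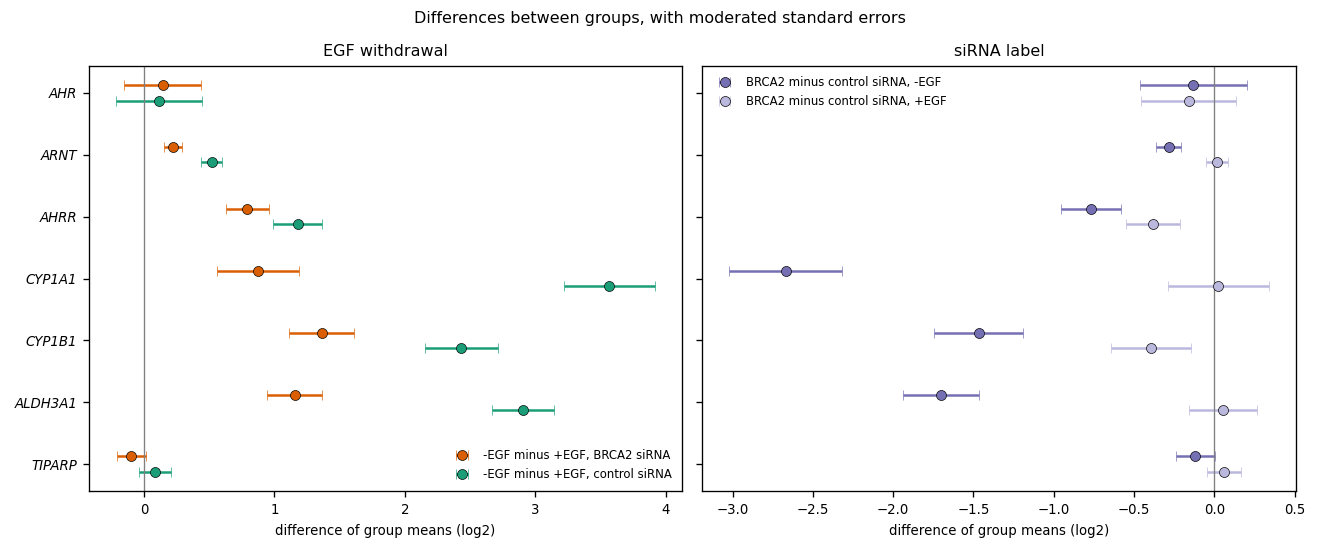
Differences of group means on the log2 scale (x axis) for the 7 genes (y axis), with bars of 1 moderated standard error; EGF withdrawal under either siRNA is on the left and BRCA2 minus control siRNA in either medium on the right. CYP1A1 has 0.88 under BRCA2 siRNA and 3.57 under control siRNA, and the differences between siRNAs with EGF lie between -0.40 and 0.06.

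Other genes lie over some members. In GENCODE 29 the antisense transcript CYP1B1-AS1 and the gene RMDN2 run over CYP1B1 on the opposite strand. CYP1B1-AS1 rose without EGF under BRCA2 siRNA by 0.77 ± 0.24 (limma adjusted p = 0.0346) and under control siRNA by 2.61 ± 0.27 (adjusted p = 3.14e-05). The first call ended when any 1 of the libraries B or C of BRCA2 siRNA without EGF, or A, B or C with EGF, was left out (adjusted p 0.0688 to 0.117), and under quantile normalization (adjusted p = 0.112). RMDN2 rose by 1.06 ± 0.23 (adjusted p = 0.00808) and 2.04 ± 0.26 (adjusted p = 9.98e-05). With only replicates B and C both calls under BRCA2 siRNA ended (adjusted p = 0.143 for CYP1B1-AS1 and 0.159 for RMDN2). Whether reads were counted by strand is not given in the sources used here. It is therefore unknown whether reads of CYP1B1 and of these genes were kept apart. With EGF, CYP1B1 was higher in replicate B than in C (6.08 against 5.47 under BRCA2 siRNA, 6.52 against 5.66 under control siRNA), and RMDN2 was lower (6.00 against 6.67, 6.02 against 6.73). CYP1B1-AS1 was level in B and C under BRCA2 siRNA (4.33 in each) and, like CYP1B1, higher in B under control siRNA (4.63 against 4.11). At AHRR the annotated span of PDCD6, a calcium-binding protein gene on the same strand, overlaps it. PDCD6 fell by 1.03 ± 0.14 under control siRNA (limma adjusted p = 0.000132), the opposite sign to AHRR. TIPARP-AS1, beside TIPARP, did not pass the test in any comparison.

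**Figure D3:**
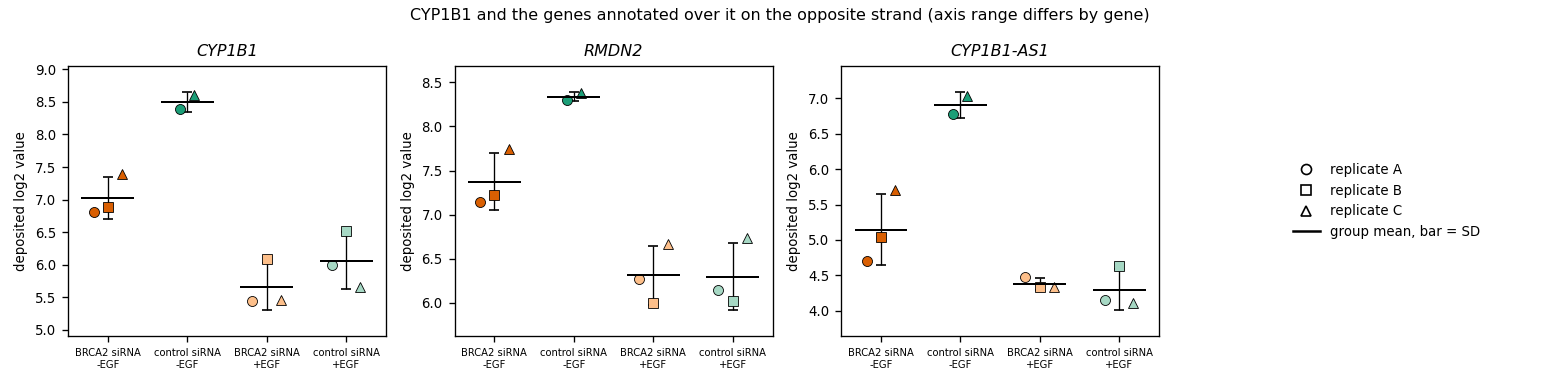
Deposited log2 value (y axis, own range per gene) of CYP1B1, RMDN2 and CYP1B1-AS1 by group (x axis), with 1 point per library, the mean as a line and the SD as a bar. All 3 are highest in the 2 control siRNA libraries without EGF, while in the libraries with EGF replicate B is highest for CYP1B1 and lowest for RMDN2.

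For each member the 3 genes with the most similar pattern were found by Pearson correlation over the 11 libraries. All libraries share the same 4 groups and the same normalisation, so a high value can come from the order of the groups, or, as for AHR with its spread among the libraries with EGF, from differences between replicates. CYP1A1 was most like the kallikrein protease KLK10 (0.995), the small GTPase RHOV (0.994) and KLHL24 (0.994). CYP1B1 was most like P3H2 (0.994), LSR (0.991) and PLEKHM1P1 (0.990), and ALDH3A1 like the receptor NOTCH3 (0.994), PATJ (0.994) and the interleukin-1 antagonist IL1RN (0.993). ARNT was most like ZNF608, the collagen chain COL5A2 and the lysosomal glycoprotein GPNMB (0.995 each), and AHRR like MAPK8IP3 (0.990), NISCH (0.985) and C1RL (0.985). AHR and TIPARP had other neighbours. AHR was most like the transcription factor ZEB2 (0.989), TES (0.983) and ATXN1 (0.972), and TIPARP like the NF-kB inhibitor NFKBIA (0.978), ZNF583 (0.952) and MSH4 (0.939). Among the members, ARNT, AHRR, CYP1A1, CYP1B1 and ALDH3A1 correlated with each other at 0.908 to 0.986, and AHR with those 5 at 0.188 to 0.421.

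The wider pathway was read through 7 lists of 110 genes in all, all of which were in the table and 87 of which were tested. Without EGF under BRCA2 siRNA 17 of the 87 rose and 7 fell in limma's test, 19.5% and 8.05%, against 13.4% and 13.8% of all genes tested. Under control siRNA 25 rose and 23 fell, 28.7% and 26.4%, against 24.7% and 26.1% of all genes. The median difference over the 87 was 0.04 under BRCA2 siRNA and 0.03 under control siRNA. In all 24 genes were called under BRCA2 siRNA, but 15 without BRCA2 siRNA replicate C without EGF. Under control siRNA 48 were called, but 28 without control replicate A without EGF. With replicates B and C alone, which leave a single control library without EGF, 0 genes were called under BRCA2 siRNA and 12 under control siRNA. In that subset each of the 18 genes named by rule under BRCA2 siRNA lost its call, as did 9 of 20 under control siRNA.

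Among the 19 tested of 24 other genes reported as AHR targets, 2 rose and 2 fell without EGF under BRCA2 siRNA, and 4 rose and 3 fell under control siRNA (medians 0.17 and 0.11). These were 10.5% and 10.5%, and 21.1% and 15.8%. Over all genes tested 13.4% rose and 13.8% fell under BRCA2 siRNA, and 24.7% and 26.1% under control siRNA. FLG, the filaggrin of the epidermal barrier, rose by 1.33 ± 0.19 under BRCA2 siRNA (limma adjusted p = 0.00134) and by 2.34 ± 0.21 under control siRNA (adjusted p = 1.96e-05). Its values were 5.43, 5.92 and 5.46 in BRCA2 siRNA and 6.66 and 6.41 in control siRNA libraries without EGF, against 3.997 to 4.48 and 4.02 to 4.44 with EGF. VAV3 also rose under control siRNA, at 10.61 and 10.67 without EGF against 7.11 to 8.14 with EGF. That difference ran from 2.92 to 3.43 as single libraries were left out. In BRCA2 siRNA libraries VAV3 was 8.77 to 9.68 without EGF, against 7.51 to 8.02 with EGF. XDH, the xanthine dehydrogenase, fell by 0.67 ± 0.11 under BRCA2 siRNA (adjusted p = 0.00229) and by 1.84 ± 0.12 under control siRNA (adjusted p = 7.05e-06). HES1, a transcriptional repressor downstream of Notch, fell by 0.47 ± 0.09 under BRCA2 siRNA (adjusted p = 0.00376). The NRF2-linked quinone reductase NQO1, a classical member of the AHR battery, did not pass, at 12.98 to 13.14 in BRCA2 siRNA and 12.71 and 13.01 in control siRNA libraries without EGF, against 12.80 to 12.95 and 12.78 to 12.86 with EGF. It was chosen after its values were seen. CYP1A2, CYP2S1 and UGT1A6, also targets, were among the 5 of 24 that did not pass the filter, and stayed at or below 1.97 in every library. Below the filter, UGT1A6 was 1.67 and 1.97 in control siRNA and 0.76 to 1.02 in BRCA2 siRNA libraries without EGF, against 0.74 to 0.78 with EGF. CYP2S1 was 0.62 and 0.65 in control siRNA libraries without EGF, against 0.64 to 0.94 with EGF, and CYP1A2 did not exceed -1.48.

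In the receptor complex and coregulator list, 4 of 14 rose and 0 fell under BRCA2 siRNA, and 6 rose and 4 fell under control siRNA (medians 0.06 and -0.05). Over all genes tested the shares that rose and fell were 13.4% and 13.8% under BRCA2 siRNA, and 24.7% and 26.1% under control siRNA. The coactivator NCOA2, which binds the AHR complex, rose by 0.61 ± 0.10 under BRCA2 siRNA (limma adjusted p = 0.00245) and 1.08 ± 0.11 under control siRNA (adjusted p = 3.64e-05). The acetyltransferases EP300 and CREBBP rose by 0.50 ± 0.09 and 0.57 ± 0.12 under BRCA2 siRNA (adjusted p = 0.00439 and 0.00638). Both also rose under control siRNA, by 0.43 ± 0.11 and 0.48 ± 0.13 (adjusted p = 0.00586 and 0.0107). The chaperone HSP90AB1, which holds AHR in the cytosol, fell by 0.56 ± 0.12 under control siRNA (adjusted p = 0.00273). Under BRCA2 siRNA its difference was -0.31 ± 0.11 with no overlap, and it did not pass (adjusted p = 0.0512). Of 9 tested bHLH-PAS relatives, 2 rose and 2 fell under BRCA2 siRNA, and 1 rose and 5 fell under control siRNA (medians -0.08 and -0.32). The clock factor BMAL2 fell by 0.91 ± 0.13 (adjusted p = 0.0012) and 1.84 ± 0.14 (adjusted p = 1.06e-05). The hypoxia factor EPAS1, which also pairs with ARNT, rose by 0.67 ± 0.13 (adjusted p = 0.00453) and 0.57 ± 0.14 (adjusted p = 0.00687), and the call under control siRNA ended without control replicate A without EGF (adjusted p = 0.056).

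Among enzymes that act beside the CYP1 oxidases 5 of 12 tested genes rose and 0 fell under BRCA2 siRNA, and 6 rose and 4 fell under control siRNA. The medians of that list were -0.09 and 0.07, so under BRCA2 siRNA the median had the opposite sign to the calls. Over all genes tested 13.4% rose and 13.8% fell under BRCA2 siRNA, and 24.7% and 26.1% under control siRNA. SULT1E1, the sulfotransferase that inactivates oestrogens, rose by 0.85 ± 0.18 (limma adjusted p = 0.00726) and 2.39 ± 0.20 (adjusted p = 1.34e-05). The epoxide hydrolase EPHX1 and the ketosteroid reductase AKR1C3 rose by 1.45 ± 0.19 and 2.02 ± 0.30 under control siRNA (adjusted p = 0.00011 and 0.000297). In BRCA2 siRNA libraries EPHX1 was 7.31, 7.29 and 7.52 without EGF, against 6.75, 6.71 and 6.90 with EGF. AKR1C3 was 7.95, 8.41 and 8.84 there, against 7.60, 6.98 and 7.93. AKR1C1, AKR1C2 and AKR1C3 are similar in sequence, so the split of reads among them can be uncertain. Of 12 tested aldehyde dehydrogenases 3 rose and 1 fell under BRCA2 siRNA, and 4 rose and 4 fell under control siRNA (medians 0.11 and 0.21). ALDH3A2, a relative of ALDH3A1 and an enzyme of fatty aldehyde oxidation, rose by 0.78 ± 0.19 (adjusted p = 0.014) and 2.05 ± 0.22 (adjusted p = 3.64e-05). The first of these calls ended without BRCA2 siRNA replicate C without EGF and without BRCA2 siRNA replicate A with EGF. ALDH1L2, a mitochondrial folate enzyme, fell by 2.44 ± 0.48 under control siRNA (adjusted p = 0.00158).

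The last lists hold relatives of TIPARP and the genes of AHR ligands. Of 15 other PARP family genes 1 rose and 0 fell under BRCA2 siRNA, and 3 rose and 2 fell under control siRNA (medians 0.04 and 0.04). The shares over all genes tested were 13.4% and 13.8% under BRCA2 siRNA, and 24.7% and 26.1% under control siRNA. PARP14, an antiviral and immune ADP-ribosyltransferase, rose by 0.53 ± 0.15 (limma adjusted p = 0.0227) and 0.85 ± 0.17 (adjusted p = 0.0016). The first of these calls ended without BRCA2 siRNA replicate B or C without EGF, and without replicate A or B with EGF. The DNA repair enzyme PARP2 fell by 0.61 ± 0.09 under control siRNA (adjusted p = 0.00032). Of the 12 genes that make or use kynurenine and related AHR ligands 6 were tested. The tryptophan oxygenases TDO2, IDO1 and IDO2, which start the route, did not pass the filter. Among the 6, 0 rose and 2 fell under BRCA2 siRNA, and 1 rose and 1 fell under control siRNA (medians 0.04 and -0.04). KYAT3, an aminotransferase, fell by 0.59 ± 0.13 (adjusted p = 0.00756) and 0.81 ± 0.14 (adjusted p = 0.000785).

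**Figure D4:**
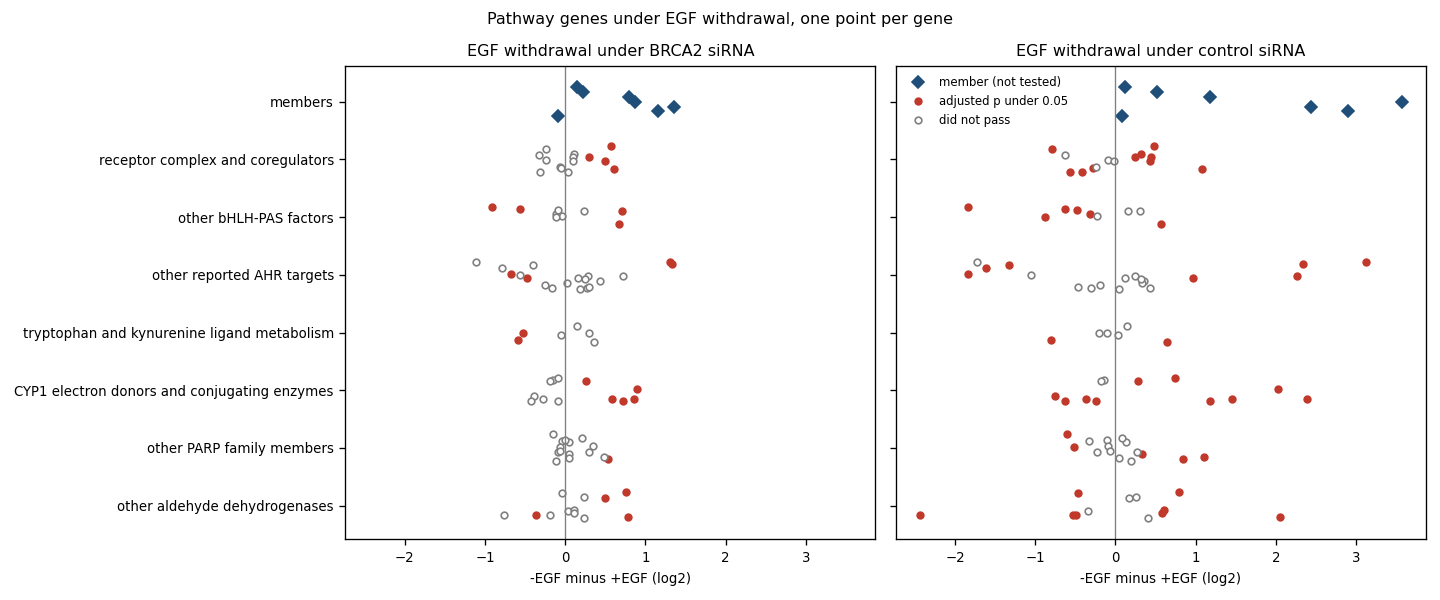
Withdrawal difference on the log2 scale (x axis) of each member and each tested gene of the 7 lists (y axis, 1 row per list), under BRCA2 siRNA on the left and control siRNA on the right; filled circles passed the test, open circles did not, and diamonds are members, which were not tested. The lists spread to both sides of 0, while the members lie between -0.10 and 1.36 on the left and between 0.08 and 3.57 on the right.

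Between siRNA labels, without EGF, 11 of the 87 tested genes were higher and 12 lower in BRCA2 siRNA than in control siRNA libraries, 12.6% and 13.8%, against 11.2% and 9.36% of all genes tested. XDH was higher by 1.28 ± 0.12 (limma adjusted p = 0.000979), SULT1E1 lower (-1.64 ± 0.20, adjusted p = 0.00147), and ALDH3A2 lower (-1.16 ± 0.22, adjusted p = 0.00539). The count of 23 was 8 and 12 without BRCA2 siRNA replicate A and B without EGF, and 5 and 6 without control replicate A and C without EGF. With replicates B and C alone it was 0, and in a fit of the 5 libraries without EGF alone it was 46. With EGF 0 of the 87 genes passed in limma, where 0% of all genes were called higher and 0.00557% lower, which is 1 gene, and 508 genes had an unadjusted p under 0.05. The test of the difference between withdrawal effects called 2 genes with a higher and 5 with a lower value under BRCA2 siRNA, 2.30% and 5.75% of the 87, against 1.38% and 1.93% of all genes. Leaving out single libraries moved that count of 7 to between 0 and 13. All 6 genes named by rule lost the call when any of 5 libraries was left out. These were BRCA2 siRNA replicate B and control replicates A and C without EGF, and BRCA2 siRNA replicate C and control replicate A with EGF.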

How the data were processed

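Total RNA was depleted of ribosomal RNA and made into ScriptSeq v2 libraries, per the labels' protocols. The authors deposited 1 table of log2 values, 40460 Ensembl genes by 11 libraries, from -2.94 to 20.62. Tools listed without role in the submitters' processing notes are TopHat2 2.0.11, DESeq2 and limma, and the build is hg19. How reads were counted, on which annotation and how log2 values were formed is not given in the sources used here. A transform that draws weak genes to a floor would compress their differences. The deposited values carry no depth, so no counting interval is given.

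Symbols came from a table of Ensembl names, which matched 37585 genes (92.9%). Genes at or above 10 on the linear scale (3.32 in log2) in at least 2 libraries were tested, 17945 in all. A model with 4 groups was fitted to the 11 libraries in limma 3.58.1 (R 4.3.3) with a mean-variance trend, and was tested on simulated data. The simulated noise was independent between libraries, without the centring of A and without deviations shared by letter. That check therefore does not cover those features of the data. Tests are two-sided, adjusted after Benjamini and Hochberg over all genes tested, with a threshold of 0.05. Values after ± are moderated standard errors unless marked SD. They pool the spread of all 4 groups, so they can differ from the spread of the groups compared. Replicates are biological by label, and p-values measure the spread between these libraries within groups, as the centring of A left it. The main fit spent no degree of freedom on that centring and treated the libraries as independent. With EGF, though, the B libraries deviated together, as did the C libraries (correlations 0.695 and 0.700). Deviations within a group cancel, so these 2 correlations are not separate. BRCA2 siRNA B with control siRNA C had -0.746, and BRCA2 siRNA C with control siRNA B had -0.642. The members and lists were chosen with earlier results of these data known. Named genes are the members, BRCA2, genes overlapping members, up to 3 called genes with the smallest p per list and comparison, and the 3 most similar genes per member. Which of these are described, and any other list gene named, was chosen after values were seen. Alternatives were other filters, quantile normalization, a term for replicate A, the replicate block, B and C alone, the groups compared alone, no trend, and each library left out. Promoter windows are from RefSeq (GRCh38.p14), a later build than hg19, so no other coordinates are given.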

Additional observations from a re-analysis of the deposited data

Results flagged for a closer look

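The withdrawal effect of 8 genes beside the 7 members differed between siRNA labels in the limma interaction test, given as BRCA2 siRNA minus control siRNA on the log2 scale. XDH fell less without EGF under BRCA2 siRNA, with a difference of 1.17 (adjusted p = 0.0167). BMAL2 also fell less, with a difference of 0.93 (adjusted p = 0.0331). SULT1E1 rose less under BRCA2 siRNA, at -1.53 (adjusted p = 0.0263), as did VAV3 at -1.81 (adjusted p = 0.0439) and ALDH3A2 at -1.27 (adjusted p = 0.0412). CCNG2 had a difference of -0.80 (adjusted p = 0.0369), with withdrawal differences of 0.17 under BRCA2 siRNA and 0.97 under control siRNA. HES1 had a difference of -0.58 (adjusted p = 0.0377), with withdrawal differences of -0.47 under BRCA2 siRNA and 0.11 under control siRNA. CYP1B1-AS1, which overlaps CYP1B1, had a difference of -1.84 (adjusted p = 0.0302), and that call ended in 7 of 11 fits with a library left out (adjusted p up to 0.134). With replicates B and C alone 0 of the 7 listed genes among these 8 were called, and the CYP1B1-AS1 call ended too (adjusted p = 0.842). No group has the 4 libraries needed to look for a library far from the rest.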

How the results depend on the processing

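By the rule used, the replicate letters were not taken to pair the libraries. Of 15 pairs with the same letter in different groups 2 had deviations correlated above 0.1 (range -0.37 to 0.70). These were B with B (0.695) and C with C (0.700) in the libraries with EGF, where A with A had -0.12, and 4 of 11 libraries correlated best with their own letter. The B and C correlations are not separate, since deviations within a group cancel. A with A was negative in every pair, from -0.37 to -0.12. The centring fixed the mean of A against B and C in every gene, so this check could not show pairing by A. With the replicate block the counts of pathway genes called were 29 for withdrawal with BRCA2 siRNA, 53 with control siRNA, 28 between siRNAs without EGF, 0 with EGF and 7 for the interaction, against 24, 48, 23, 0 and 7 without it. The block moved the BRCA2 interaction past the threshold (0.73, limma adjusted p = 0.033, against 0.69 and 0.0532). With only replicates B and C the counts were 0, 12, 0, 0 and 0. In the groups compared alone the count between siRNAs without EGF was 46, and without the mean-variance trend the interaction count was 2. Leaving out 1 library at a time gave 15 to 29, 28 to 53, 5 to 32, 0 to 0 and 0 to 13. Of the genes named by rule, 1 of 17 between siRNAs without EGF lost its call with the block. The member differences stayed within 1 residual SD in all 385 values with a library left out and in 264 of 273 values under the other alternatives. The other 9 were ARNT and TIPARP under quantile normalization, and ARNT (-0.23) and AHRR (-0.54) between siRNAs without EGF with B and C alone. Leaving out a library of a group not compared cannot move a difference of group means. Neither can another filter, a fit with no trend, or the groups compared alone. Many of these values were therefore fixed in advance and do not measure stability. No member whose groups did not overlap changed sign. Dropping libraries cannot reverse such a difference, so for those fits this outcome was fixed in advance. Members whose groups overlapped were not counted here. For AHR the withdrawal difference under control siRNA ran from -0.204 to 0.335 as single libraries were left out. BRCA2 changed sign where its difference was near 0, to 0.0151 for withdrawal with BRCA2 siRNA under quantile normalization. Between siRNAs with EGF it ran over -0.0603 to 0.114 as single libraries were left out, the lowest without control replicate B with EGF. The interaction could not be fitted in the groups compared alone, since it uses all 4. The missing depth limits what can be said of weak genes.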
